A study of Mus musculus with 6 samples.

Results

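The SMOC and SPARC genes encode a family of secreted matricellular proteins that share a follistatin-like or an extracellular calcium-binding domain. The members were the rows of a table of 23718 genes whose symbol was Smoc1, Smoc2, Sparc, Sparcl1, Spock1, Spock2, Spock3 or Fstl1. Of these 8 genes, 7 were listed and all 7 passed the filter on low values (an average of 1 or more across samples). The expression of Spock3 is not analysed here, and only its reference sequence is used. The family was chosen by the normalized value of Smoc2, which was already known to differ between these groups when the list was drawn up, so the Smoc2 difference is a description with no test, and nothing is read from the direction of the family as a whole.

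Matricellular proteins are secreted into the extracellular matrix without being its structural scaffold, and they tune how cells attach to the matrix, how collagen is assembled and how growth factors reach their receptors. SPARC, also called osteonectin, binds collagen and is a well-known product of odontoblasts and osteoblasts, and SPARCL1 (hevin) is its closest relative. SMOC1 and SMOC2 join calcium-binding and thyroglobulin-type domains, SMOC1 acts as an antagonist of BMP signaling, and loss of SMOC2 is known to disturb tooth development. The SPOCK proteins (testicans) are proteoglycans of the same lineage, and FSTL1 is a follistatin-like glycoprotein that binds BMP ligands.

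The mouse incisor grows throughout life from mesenchymal stem cells (MSCs) at its proximal end, whose progeny, the transit amplifying cells (TACs), divide before they become odontoblasts and pulp cells. The study compared the 2 regions to define the genes that mark each of them. The 3 MSC samples came from Gli1-CreER;tdT mice and the 3 TAC samples from Axin2-CreER;tdT mice (CreERT2 drivers with a floxed-stop tdTomato reporter at Rosa26), so driver and region cannot be told apart. All 6 samples were incisors of mice aged 1 month, labelled C57BL/6 although the study's methods give a mixed background, collected 1 day after tamoxifen switched on the tdTomato reporter, and laser capture microdissection took the cells that carried it. Gli1 and Axin2 are not restricted to a single cell type, and captured tissue can hold vessels, nerves and neighbouring cells. In such bulk samples, fewer cells of a type and less RNA per cell cannot be told apart.

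Members of a gene family can share sequence, so the coding windows most alike within each pair of close relatives are shown, because they carry the reads that would be hardest to assign. They are read from the GENCODE M21 transcripts on GRCm38, 5′ to 3′, with capitals at the bases that differ within the pair. The Smoc1 window, in exon 8, lay at chr12:81167579-81167653 on the plus strand and the Smoc2 window, also in exon 8, at chr17:14368974-14369048 on the plus strand. The Sparc exon 7 window lay at chr11:55401952-55402026 and the Sparcl1 exon 7 window at chr5:104088398-104088472, both on the minus strand. The Spock1 exon 5 window lay at chr13:57587657-57587731 on the minus strand and the Spock2 exon 4 window at chr10:60121686-60121760 on the plus strand.
Smoc1: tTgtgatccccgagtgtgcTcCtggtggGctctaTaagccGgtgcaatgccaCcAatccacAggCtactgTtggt
Smoc2: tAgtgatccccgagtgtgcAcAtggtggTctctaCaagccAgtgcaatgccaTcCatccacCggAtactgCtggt
Sparc: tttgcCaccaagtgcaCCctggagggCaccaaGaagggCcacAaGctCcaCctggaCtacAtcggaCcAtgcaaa
Sparcl1: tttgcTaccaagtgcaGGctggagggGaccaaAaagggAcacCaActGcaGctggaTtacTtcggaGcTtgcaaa
Spock1: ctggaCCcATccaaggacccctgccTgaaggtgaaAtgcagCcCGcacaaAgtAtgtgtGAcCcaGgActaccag
Spock2: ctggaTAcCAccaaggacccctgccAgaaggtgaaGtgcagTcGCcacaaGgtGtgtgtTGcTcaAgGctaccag
Of the 75 bases of a read, 64 matched between Smoc1 and Smoc2, 61 between Sparc and Sparcl1 and 59 between Spock1 and Spock2. Across the 3 subfamilies and Fstl1, the best window of any pair matched at 39 to 49 bases. None of the 28 pairs of members shared an exact stretch of 75 bases anywhere in their transcripts (0 pairs), Spock3 included. A read without mismatches therefore matched no more than 1 member.

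The values were the deposited normalized values, in which any gene's reads carry equal weight within a library. The 6 libraries held an estimated 20203159 to 108156380 reads. Replicate 3 of both groups stood apart: 43.1% of the listed genes had no read in MSC replicate 3 and 28.3% in TAC replicate 3, against 6.89% to 8.36% in the other 4 libraries, and mitochondrial ribosomal RNA took 0.236% and 0.112% of the signal in these 2 libraries against 8.28% to 9.07% in the others. The difference of each member is therefore given over all 6 libraries, within replicates 1 and 2, and within replicate 3. Replicates 1 and 2 of a group differed by more than counting noise (chi-square per degree of freedom of 10.3 in MSC and 8.33 in TAC, on estimated reads that are partly fractional) and are used as the separate samples that the labels name. The study's methods name 3 mice per group, and p-values measure the spread between these libraries, which may be partly technical. The driver genes overlapped between the groups: Gli1 ranged from 245 to 422 in MSC and from 141 to 396 in TAC, and Axin2 from 12.01 to 58.3 in MSC and from 34.1 to 63.9 in TAC. Neither passed the test (log2 difference -0.54 and 0.60, limma, adjusted p = 0.718 and 0.758), although Gli1 did with replicates 1 and 2 only (-0.77, adjusted p = 6.63e-06). In that fit 6796 of the 15391 genes tested passed, so passing there says little. Mki67, a marker of dividing cells, ranged from 41.5 to 137 in MSC and from 122 to 630 in TAC, with TAC the higher in each of the 3 same-numbered pairs. Its difference of 1.97 did not pass without the replicate block (adjusted p = 0.361) and passed with it (0.0442). All 11 dental mesenchyme markers were listed, with a summed level of 1399 to 1694 in MSC and 961 to 1126 in TAC, and Barx1 had no read in at least 1 library. They went both ways: 5 (Pax9, Lhx8, Dlx1, Prrx1 and Vim) were higher in every MSC library and 2 (Msx1 and Msx2) in every TAC library. Of all genes tested, 12.2% and 12.3% were so.

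Both SMOC genes were far lower in TAC than in MSC. Counted from the MSC end of the 15391 genes tested, Smoc1 stood at rank 40. Smoc2 was at rank 2, which is a description only, because its difference was known when the family was chosen. In the limma fit over all genes, 2 of the 6 members other than Smoc2 passed the adjusted threshold of 0.05, Smoc1 and Spock1, both higher in MSC. Over all genes tested 0.422% passed it, 0.383% higher in MSC and 0.039% higher in TAC. Of these 6 members the groups did not overlap in 4 that were higher in MSC and in 1 that was higher in TAC, against 12.2% and 12.3% of all genes tested (24.5% in both directions together). At an unadjusted p under 0.05, 3 of the 6 passed, Smoc1, Spock1 and Sparcl1, each higher in MSC, where 6.43% of all genes passed, against 5.42% higher in TAC. The level was lower in TAC in all 3 same-numbered pairs of libraries in 4 of these 6 members, against 26.4% of all genes, and higher in all 3 in 1 member, against 24.6%. The replicates carry numbers, and with the replicate number as a block the same 2 members passed, while 229 genes (1.49%, 0.884% higher in MSC) passed in place of 65.

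**Figure D1:**
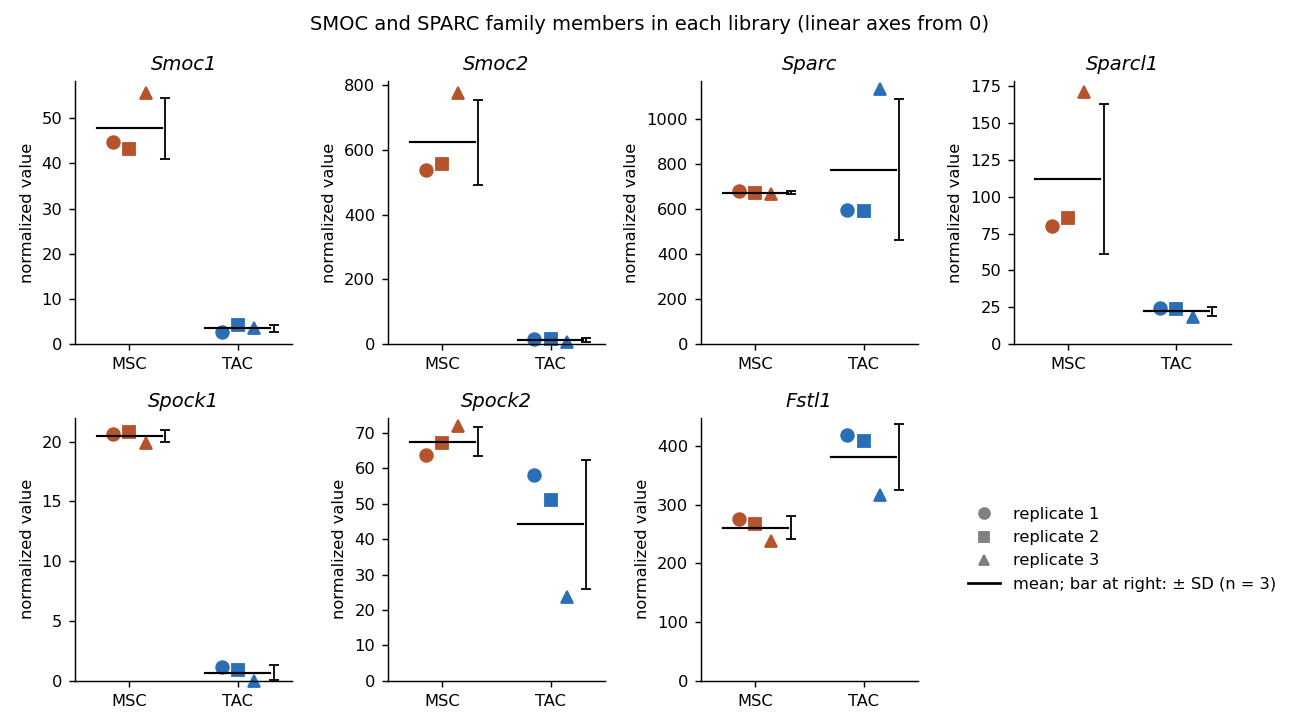
Normalized value of each family member (y axis, linear from 0) in the 3 MSC and 3 TAC libraries, with a marker shape per replicate, the mean as a line and the SD as a bar (n = 3). Smoc1, Smoc2, Sparcl1 and Spock1 have TAC points far below their MSC points, Fstl1 is higher in TAC, and the single high Sparc value is TAC replicate 3 at 1137.

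Smoc1 (ENSMUSG00000021136.13, mm10 chr12:81026808-81186414, plus strand), whose product antagonizes BMP signaling, had normalized values of 44.6, 43.2 and 55.6 in MSC replicates 1 to 3 and of 2.67, 4.2 and 3.58 in TAC replicates 1 to 3. Every MSC library stood far above every TAC library, and the 3 TAC values came from 121, 174 and 943 estimated reads. The means were 47.8 ± 6.77 in MSC and 3.48 ± 0.767 in TAC (SD, n = 3), a 13.7-fold difference. On the log2(value + 1) scale Smoc1 fell by 3.45 in TAC (SE 0.34, 95% interval -4.25 to -2.65, adjusted p = 0.0196). The difference was -3.36 within replicates 1 and 2 and -3.63 within replicate 3, so the libraries that stood apart gave nearly the same size. The call was lost when any of the 4 libraries of replicates 1 and 2 was left out (adjusted p from 0.107 to 0.222).

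Smoc2 (ENSMUSG00000023886.10, chr17:14279506-14404790, plus strand) had values of 539.7, 555 and 775 in MSC and of 17.5, 16.5 and 6.54 in TAC. The highest MSC library and the lowest TAC library were both replicate 3. The means were 623 ± 131 in MSC and 13.5 ± 6.05 in TAC, a 46.1-fold difference. As a description, the difference in log2(value + 1) was -5.51, and it was -4.93 within replicates 1 and 2 and -6.68 within replicate 3. Between the libraries of replicate 1 the ratio of MSC to TAC was 30.9, between those of replicate 2 it was 33.6, and between those of replicate 3 it was 118. As a description, Smoc2 was 6.08 to 7.01 times Smoc1 per kilobase of exon in the MSC libraries and 0.920 to 3.29 times in the TAC libraries. With the longest transcript as the length the ratio was 10.6 to 12.3 in MSC and 1.61 to 5.75 in TAC, so TAC replicate 3 turned from below to above 1. Whether reads were counted by strand is not given in the sources used here, and Smoc2 overlaps the antisense gene 4930474M22Rik.

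**Figure D2:**
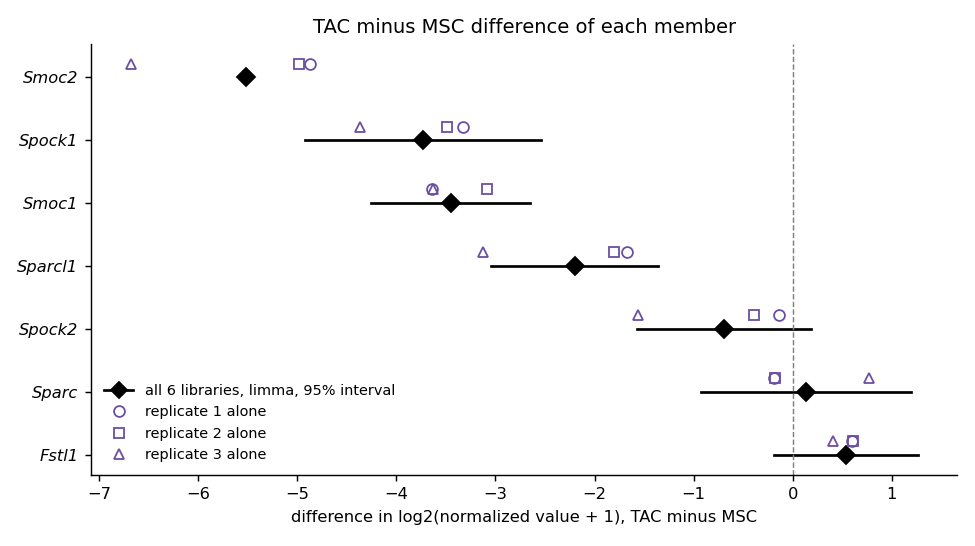
Difference of each member between groups (x axis, log2(value + 1), TAC minus MSC, negative when higher in MSC), with the estimate over all 6 libraries, its 95% interval from limma (none for Smoc2, which was not tested), and the differences between same-numbered libraries as open symbols. The intervals of Spock1, Smoc1 and Sparcl1 lie wholly below 0, and those of Spock2, Sparc and Fstl1 span 0.

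Of the collagen-binding pair, neither passed the adjusted test, and the groups overlapped in Sparc but not in Sparcl1. Sparc (ENSMUSG00000018593.13, chr11:55394500-55423183, minus strand) had values of 681, 672 and 667 in MSC and of 597, 592 and 1137 in TAC. The MSC libraries varied little (coefficient of variation 1.07%), whereas TAC replicates 1 and 2 lay below and TAC replicate 3 above every MSC library. Its difference was 0.13 (SE 0.45, 95% interval -0.93 to 1.19, adjusted p = 0.954), which leaves room for a change of either sign. Within replicates 1 and 2 alone the sign turned, to -0.19 (adjusted p = 0.0017 in the limma fit of those 4 libraries, where 6796 of the 15391 genes tested passed). Replicate 3 gave 0.77. The odontoblast and osteoblast marker list, cells that make SPARC, summed to 917 in MSC replicate 3 and to 4655 to 5308 in the other 5 libraries. Most of that sum was Dspp (476 in MSC replicate 3 and 3095 to 4909 elsewhere), and its members did not move together. Sp7 was higher in MSC replicate 3 (122) than in the other MSC libraries (55.3 and 63.3), as was Bglap (279 against 181 and 172). Dspp, Phex (8.07), Ibsp, Dmp1 and Alpl (31.4) were lowest there, Ibsp and Dmp1 without a read. Of the TAC libraries, replicate 3, where Sparc was highest, held the highest Bglap (1180), Phex (128), Alpl (109), Sp7 (114) and Ibsp (27.0). It held the lowest Dspp (3095) and Dmp1 (0.902) of the TAC libraries. The part of these cells in the Sparc values was not tested.

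Sparcl1 (ENSMUSG00000029309.7, chr5:104079111-104113733, minus strand), a relative of Sparc that is abundant in vessels, had values of 79.9, 85.6 and 171 in MSC and of 24.3, 23.8 and 18.7 in TAC. The groups did not overlap, and MSC replicate 3 stood well above the other 2 MSC libraries. The means were 112 ± 51.0 and 22.3 ± 3.11, a 5.03-fold difference. Sparcl1 did not pass the adjusted threshold (log2 difference -2.20, SE 0.36, 95% interval -3.04 to -1.36, unadjusted p = 0.000396 and adjusted p = 0.0709 in limma). The difference was -1.74 within replicates 1 and 2 and -3.12 within replicate 3. It passed without MSC replicate 3 (adjusted p = 0.0376). Per kilobase of exon, Sparc was 3.03 to 6.61 times Sparcl1 in MSC and 19.0 to 47.1 times in TAC, or 4.68 to 10.2 and 29.4 to 72.9 times with the longest transcript as the length. The antisense gene Gm26703 that overlaps Sparcl1 reached at most 1.47 in any library.

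Of the testicans, Spock1 passed the test and Spock2 did not, and the difference between these 2 genes was not tested. Spock1 (ENSMUSG00000056222.15, chr13:57421195-57908314, minus strand) had values of 20.7, 20.8 and 19.9 in MSC and of 1.16, 0.935 and 0.0114 in TAC. The 3 MSC libraries were nearly identical, and the TAC values came from 52, 38 and 2 estimated reads, so TAC replicate 3 was close to its floor of 1 read. The means were 20.5 ± 0.5 and 0.702 ± 0.609, a 29.1-fold difference. Spock1 fell by 3.73 on the log2(value + 1) scale in TAC (SE 0.51, 95% interval -4.92 to -2.54, adjusted p = 0.0399). The difference was -3.41 within replicates 1 and 2 and -4.37 within replicate 3. The size depended on how low values were treated, from -2.16 with a pseudocount of 5 to -8.35 with limma voom. The call was close to the threshold: it was lost with a pseudocount of 0.5 (adjusted p = 0.0678), without the filter on low values (0.0765), with limma voom on estimated reads (0.107), with replicates 1 and 2 averaged (0.662), and when a single library other than MSC replicate 3 was left out (0.0592 to 0.254).

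Spock2 (ENSMUSG00000058297.16, chr10:60106219-60135198, plus strand) had values of 63.8, 67.1 and 71.9 in MSC and of 58.1, 51.0 and 23.7 in TAC. The groups did not overlap, but TAC replicates 1 and 2 lay close under the MSC libraries and TAC replicate 3 was far below them. The means were 67.6 ± 4.08 and 44.2 ± 18.2. Its difference was -0.70 (SE 0.37, 95% interval -1.57 to 0.18, adjusted p = 0.532), with -0.26 within replicates 1 and 2 and -1.56 within replicate 3. Per kilobase, Spock2 was 4.66 to 5.47 times Spock1 in the MSC libraries, and 75.7 and 82.4 times in TAC replicates 1 and 2. With the longest transcript as the length these ratios were 2.72 to 3.19, and 44.1 and 48.0. In TAC replicate 3 the ratio rests on the 2 Spock1 reads.

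The bases before the start of Spock1 are shown because it is the member that passed the test for which RefSeq gives a start window here. The sequence below is that of the 250 bases before the start on GRCm38.p6, chr13:57908333-57908582 on the minus strand, from RefSeq, with capitals at the only match to the motifs searched.
Spock1 upstream: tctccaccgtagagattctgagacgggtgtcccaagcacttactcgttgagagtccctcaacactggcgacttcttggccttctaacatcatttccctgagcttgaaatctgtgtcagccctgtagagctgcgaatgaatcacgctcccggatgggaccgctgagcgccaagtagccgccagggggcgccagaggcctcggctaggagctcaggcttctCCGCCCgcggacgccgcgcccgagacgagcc
The capitals mark a match to the GC box on the other strand, at position -31 from the start. The 6 windows of 5 members (Spock3, with 2, among them) were searched on both strands for 4 motifs. The letters searched were GGGCGG for the GC box and GACCACCCA for the GLI consensus. For the other two, the searches used TATAAA and, as a separate motif, CCAAT. Among all 32851 RefSeq windows of this length, 12.4% held TATAAA, 32.7% GGGCGG, 33.8% CCAAT and 0.225% GACCACCCA. Of the 6 member windows only those of Spock1 and Fstl1 held GGGCGG, and none held the other motifs (0 of 6). The Spock1 window was 61.2% GC with 20 CG dinucleotides, against a median over all windows of 52.4% and 6.

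Fstl1 (ENSMUSG00000022816.11, chr16:37776873-37836514, plus strand), a secreted BMP-binding glycoprotein of mesenchyme, was the member that leaned to TAC in all 3 same-numbered pairs. Its values were 276, 267 and 239 in MSC and 420, 409 and 316 in TAC. Every TAC library stood above every MSC library, and replicate 3 was the lowest of its group in both. The means were 261 ± 19.4 and 381 ± 56.9, 1.46-fold higher in TAC. Its difference of 0.54 did not pass the test (SE 0.31, 95% interval -0.19 to 1.27, adjusted p = 0.563; with the replicate block 0.0878). It was 0.61 within replicates 1 and 2 and 0.40 within replicate 3. The list of dividing-cell markers summed to 94.4 to 199 in MSC and 277 to 949 in TAC, with the lowest TAC sum also in replicate 3, and its part in the Fstl1 values was not tested.

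Levels of different genes can be set side by side only per length, so each value was divided by the kilobases of annotated exon. Sparc was the most abundant member in both groups, at 178 ± 1.91 per kilobase in MSC and 205 ± 82.6 in TAC (SD, n = 3), and Spock1 the least abundant, at 2.45 ± 0.0598 and 0.0840 ± 0.0728. In MSC the order after Sparc was Smoc2 (89.7 ± 18.9 per kilobase), Fstl1 (53.1 ± 3.95), Sparcl1 (38.2 ± 17.4), Smoc1 (13.7 ± 1.94), Spock2 (12.2 ± 0.737) and Spock1. The ranges of Fstl1 and Sparcl1 overlapped, as did those of Smoc1 and Spock2, and the other neighbours did not overlap. In TAC the order after Sparc was Fstl1 (77.6 ± 11.6 per kilobase), Spock2 (8.0 ± 3.28), Sparcl1 (7.59 ± 1.06), Smoc2 (1.94 ± 0.871), Smoc1 (0.996 ± 0.219) and Spock1. Here Spock2 overlapped Sparcl1 and Smoc2 overlapped Smoc1. With the longest transcript as the length, neither Smoc2 and Smoc1 in TAC nor Fstl1 and Sparcl1 in MSC overlapped. Smoc2 thus stood at rank 2 in MSC and at rank 5 in TAC. Of the summed level per kilobase of the 7 members, Smoc2 made up 21.1% to 26.2% in the MSC libraries and 0.250% to 0.946% in the TAC libraries. Sparc and Fstl1 made up 41.4% to 48.9% and 11.4% to 15.3% in MSC, and 59.4% to 79.6% and 17.1% to 32.2% in TAC. Shares of a common total depend on each other, and those of the other members rise where Smoc2 falls. In TAC replicates 1 and 2 the share of Sparc was above that in MSC, although its level was lower (158 and 156 per kilobase against 176 to 180).

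**Figure D3:**
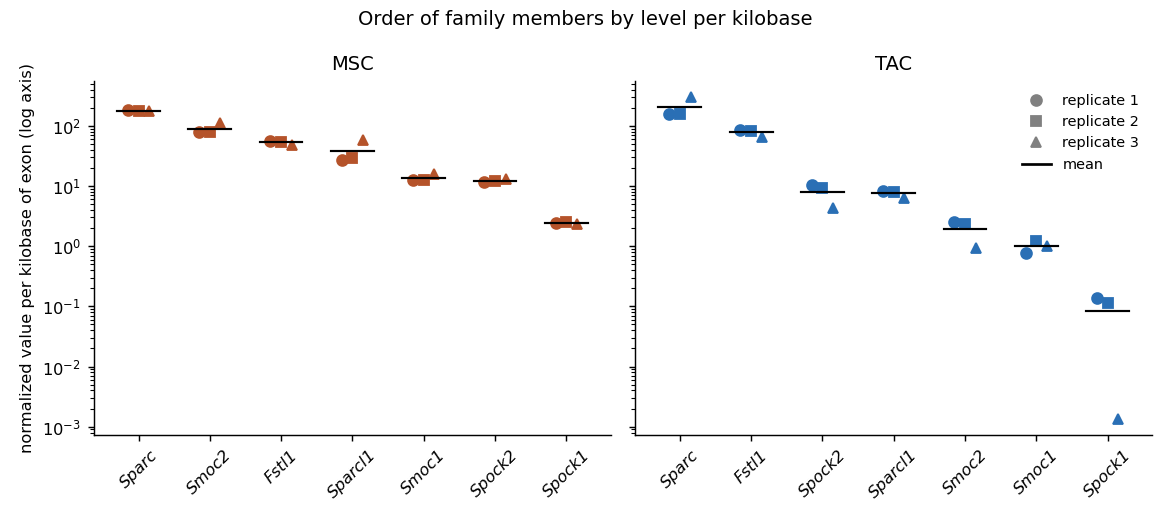
Normalized value per kilobase of exon (y axis, log scale) of each member in MSC (left) and TAC (right), ordered by the group mean, with a marker shape per replicate and the mean as a line. Smoc2 is at rank 2 in MSC (89.7) and rank 5 in TAC (1.94), while Sparc leads and Spock1 is last in both.

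Most markers of blood vessels were lower in TAC, as were the SMOC genes, Sparcl1 and Spock1. The difference was negative in all 10 smooth muscle and pericyte markers and in 9 of 10 endothelial markers, against 48.5% of all genes tested. The endothelial marker Kdr was at 0.0015, and the groups also overlapped in Tek and Emcn. All 10 smooth muscle and pericyte markers were higher in every MSC library than in every TAC library, and their summed level was 893 to 1677 in MSC and 132 to 152 in TAC, 8.01-fold higher by the group means. Of all genes tested, 12.2% had groups that did not overlap with MSC the higher. Of the 10 smooth muscle and pericyte markers 5 passed the adjusted test (Acta2, Myh11, Tagln, Rgs5 and Notch3), against 0.383% of all genes. Of the 10 endothelial markers 7 did not overlap, their sum was 312 to 357 in MSC and 125 to 134 in TAC, and none passed the adjusted test in limma (0 of 10, with 5 at an unadjusted p under 0.05, against 6.43% of all genes higher in MSC). With the replicate block 2 endothelial markers passed (Vwf, adjusted p = 0.0323, and Cldn5, 0.0491) and 6 smooth muscle and pericyte markers did, with Acta2 lost (0.0701) and Cspg4 (0.0442) and Mcam (0.0456) gained. In that fit 0.884% of all genes passed higher in MSC. Cnn1 was the smooth muscle marker with no read in some library.

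The members did not all follow these sums. Smoc2 was 0.462 to 0.615 times the smooth muscle and pericyte sum in MSC and 0.0496 to 0.115 times in TAC, and 1.73 to 2.17 and 0.0523 to 0.130 times the endothelial sum. In log2(value + 1) the 10 smooth muscle and pericyte markers differed by -5.56 (Myh11) to -0.79 (Kcnj8), with a median of -2.14, against -5.51 in Smoc2. Myh11 and Acta2 (-5.36) were near Smoc2, and the other markers lay between -3.60 (Tagln) and -0.79. Within replicates 1 and 2 Myh11 was at -4.99 and Acta2 at -4.03, against -4.93 in Smoc2. Smoc1 was 0.0332 to 0.05 times the smooth muscle and pericyte sum in MSC and 0.0175 to 0.0281 times in TAC. It was 0.138 to 0.156 and 0.0199 to 0.0318 times the endothelial sum. Spock1 was 0.0119 to 0.0232 times the smooth muscle and pericyte sum in MSC and 8.62e-05 to 0.00762 times in TAC, and 0.0556 to 0.0665 and 9.09e-05 to 0.00867 times the endothelial sum. Sparcl1 was 0.0895 to 0.102 times the smooth muscle and pericyte sum in MSC and 0.142 to 0.160 times in TAC, so it differed by less. Relative to the endothelial sum Sparcl1 was 0.256 to 0.478 times in MSC and 0.150 to 0.182 times in TAC. The part of vessel cells in these differences was not tested. Schwann cell markers summed to 22.5 to 49.9 in MSC and 6.42 to 19.3 in TAC, and Sox10, S100b and Foxd3 had no read in some library. Macrophage markers summed to 76.2 to 178 and 46.0 to 108, and Adgre1 had no read in some library. The 8 dental epithelium markers reported here summed to 3662 and 3600.4 in MSC replicates 1 and 2, to 299.7 in MSC replicate 3 and to 2146 to 3344 in TAC, with 4 of them higher in every TAC library than in every MSC library, against 12.3% of all genes tested. Their part in the values of replicate 3 was not tested. Skeletal muscle markers summed to at most 6.95 in any library, with Acta1 and Myh1 without a read in some library.

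**Figure D4:**
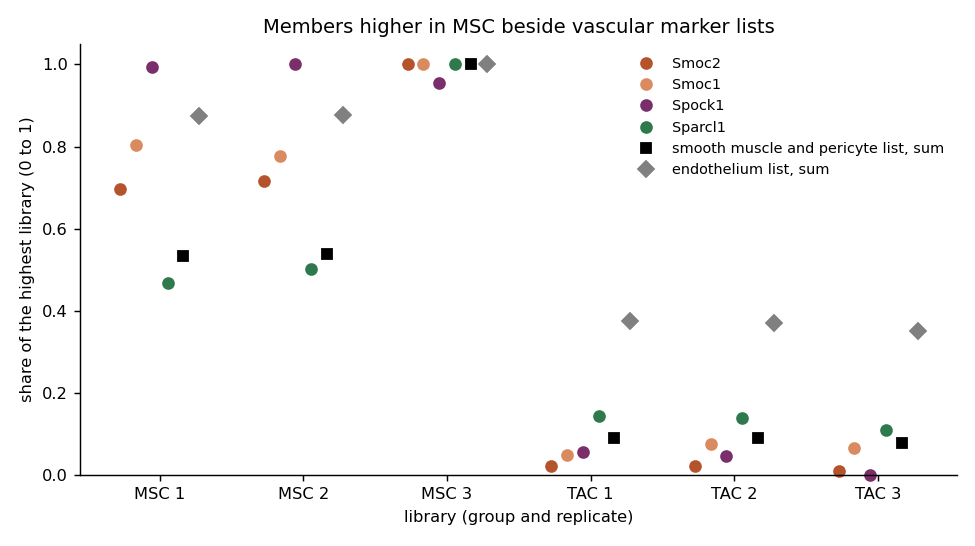
Smoc2, Smoc1, Spock1 and Sparcl1, and the summed smooth muscle and pericyte and endothelial marker lists, each as a share of its own highest library (y axis, 0 to 1) in the 6 libraries (x axis). Each of them is at its lowest in the 3 TAC libraries, where the endothelial sum (125 to 134) keeps the highest share.

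The 3 groups of related genes were set beside the family and are described by counts, with no set test. Other matricellular genes, which tune attachment as the family does, were 22 by name, of which 16 were tested. In this group 2 passed the adjusted test, both higher in MSC, and 0 higher in TAC in limma, against 0.383% and 0.039% of all genes tested. At an unadjusted p under 0.05 these counts were 7 and 1, against 6.43% and 5.42%. Their log2 differences were negative in 12 and positive in 4, with a median of -0.94 against 0.03 over all genes tested, of which 48.5% were negative and 51.5% positive. Thbs3, a thrombospondin, had values of 57.0, 60.6 and 62.3 in MSC and of 11.3, 11.9 and 16.5 in TAC, with a log2 difference of -2.12 (adjusted p = 0.0389). Ctgf, a CCN protein and a well-known YAP target, had values of 47.8, 47.5 and 61.3 in MSC and of 10.3, 7.93 and 5.49 in TAC, with a log2 difference of -2.60 (adjusted p = 0.0389). For both genes the groups did not overlap. Each call was lost in 7 of the 18 alternatives, among them leaving out any of the 4 libraries of replicates 1 and 2 (adjusted p from 0.157 to 0.242).

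The most negative differences in that group belonged to Thbs4, another thrombospondin, at -4.84 (adjusted p = 0.0709, and 0.0442 with the replicate block, under which 3 of the 16 passed, against 0.884% of all genes higher in MSC), and to the CCN gene Nov at -3.29 (adjusted p = 0.159). Thbs4 was 80.4 to 132 in MSC and 0.00379 to 7.05 in TAC. Both genes were at their lowest in TAC replicate 3. The most positive were the tenascins Tnn at 2.77 (adjusted p = 0.41) and Tnc at 1.87 (adjusted p = 0.73). Tnc was 170.3 and 162 in MSC replicates 1 and 2 and 0.473 in MSC replicate 3, against 68.0 to 173 in TAC, so 1 library decided its direction: without it the difference was -0.40. Tnn likewise was 0.0133 in MSC replicate 3, against 21.1 and 23.3 in the other MSC libraries and 43.0 to 71.5 in TAC, and without that library its difference was 1.26.

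Other genes with a follistatin-like or Kazal-type domain, the fold that many members carry, were 14 by name, of which 11 were tested. Their log2 differences were negative in 9 and positive in 2, with a median of -0.97. In this group 1 passed higher in MSC and 0 higher in TAC in limma, against 0.383% and 0.039% of all genes tested, and 3 and 0 did at an unadjusted p under 0.05, against 6.43% and 5.42%. Wfikkn2, a secreted inhibitor of myostatin-type ligands, had values of 89.2, 88.0 and 109 in MSC and of 13.8, 13.0 and 13.8 in TAC, with a log2 difference of -2.73 (SE 0.25, adjusted p = 0.0151). The groups did not overlap, and replicate 3 gave -2.90 against -2.64 in the others. The call was lost with replicates 1 and 2 averaged (adjusted p = 0.246) and without any of these 4 libraries (0.119 to 0.182). Igfbp7, an IGF-binding protein relative of the vessel wall, was 75.5 to 215 in MSC and 21.0 to 47.7 in TAC, at -1.95 (adjusted p = 0.188, and 0.0349 with the replicate block, under which 2 of the 11 passed, against 0.884% of all genes higher in MSC). The most positive were the transmembrane gene Tmeff1 at 1.09 (adjusted p = 0.549, and 0.44 in difference without MSC replicate 3) and the protease inhibitor Reck at 0.16 (adjusted p = 0.882).

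Ligands, receptors and targets of the family were 20 by name, of which 19 were tested. None passed the adjusted test in limma (0 of 19), and 4 had an unadjusted p under 0.05, each higher in MSC, against 6.43% of all genes tested. The differences were negative in 9 and positive in 10, against 48.5% and 51.5% of all genes, with a median of 0.16. The adhesion receptor Vcam1 was 14.7 to 47.1 in MSC and 1.64 to 2.85 in TAC, at -2.97 (adjusted p = 0.0913). Stab1, the scavenger receptor that takes up SPARC, was 75.9 to 87.6 in MSC and 27.2 to 34.0 in TAC, at -1.41 (adjusted p = 0.0841, and 0.0459 with the replicate block, under which 1 of the 19 passed, against 0.884% of all genes higher in MSC). The most positive were Col1a1, a collagen I chain that SPARC binds, at 0.93 (adjusted p = 0.879), and the collagen chaperone Serpinh1 at 0.75 (adjusted p = 0.438). Col1a1 was 1554 in MSC replicate 3 and 8030 to 11167 in the other 5 libraries, and without that library its difference was 0.06, below that of Serpinh1 at 0.88. Without it Vcam1 (adjusted p = 0.0421) and Stab1 (0.0389) passed.

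**Figure D5:**
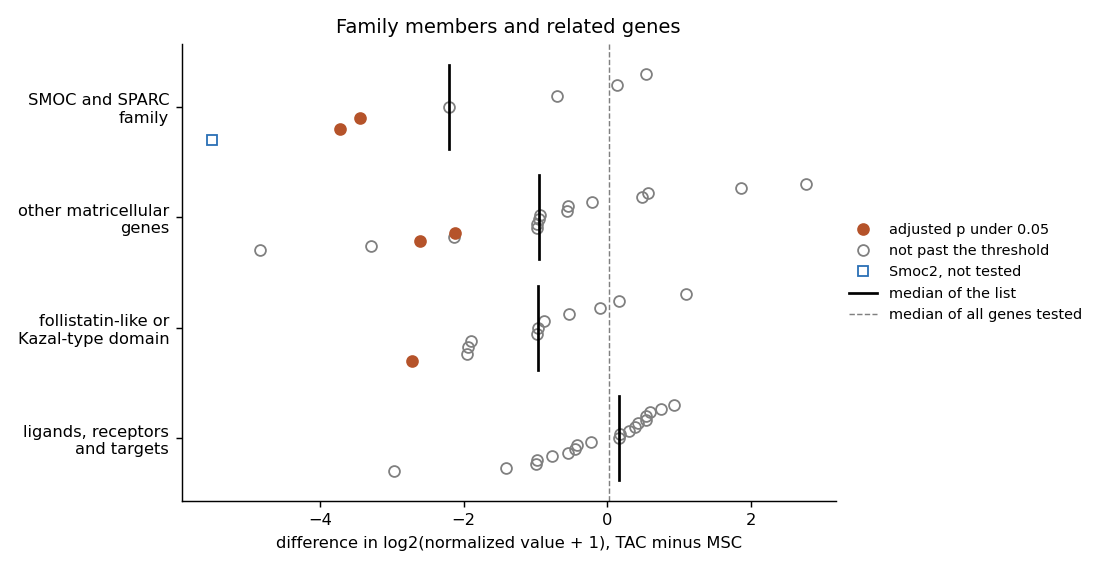
Difference of each gene (x axis, log2(value + 1), TAC minus MSC) in the family and in the 3 related groups (rows), with filled points past an adjusted p of 0.05, a black line at each group's median and a dashed line at the median of all genes tested. The medians of the 3 related groups are -0.94, -0.97 and 0.16 from top to bottom, against 0.03 over all genes. The family's own median line includes Smoc2, by which the family was chosen, so it is not compared with them.

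The 3 genes whose log2(value + 1) followed each member most closely over the 6 libraries were taken as a description, with Pearson's r from 0.993 to 0.999. The points share the 2 groups and the libraries that stood apart. Smoc2 was followed by St6galnac5, a sialyltransferase, then Zbtb4 and Crtc1, and Smoc1 by Ppp2r2b, Appl2 and the clock repressor Bhlhe41. St6galnac5 was 16.5 to 22.9 in MSC and 0.00758 to 0.744 in TAC, and Bhlhe41 was 69.0 to 96.3 in MSC and 4.81 to 6.28 in TAC. Spock1 was followed by Atp8b1, by Sfrp2, a secreted WNT modulator at 521 to 703 in MSC and 19.6 to 39.3 in TAC, and by the lipase Lpl. Sparcl1 was followed by Timp3, an inhibitor of matrix proteases at 207 to 513 in MSC and 27.2 to 39.6 in TAC, then by Zc3h12d and Slc9a3r2. For Fstl1 the nearest were Top2a and Incenp, both used in cell division, and Asnsd1. Top2a, itself in the dividing-cell list, was 27.5 to 42.6 in MSC and 74.2 to 240 in TAC. Sparc was followed by the oxidoreductase Ero1l, by Tmem35b and by Amtn, an enamel organ gene that was 149.6 in TAC replicate 3 and at most 6.73 elsewhere. Spock2 was followed by Rexo1, Gm28043 and Arid5b, which like Spock2 were lowest in TAC replicate 3.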

How the data were processed

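RNA of cells taken by laser capture from incisors of 3 Gli1-CreER;tdT (MSC) and 3 Axin2-CreER;tdT (TAC) mice had been sequenced as single-end reads of 75 bases. Per the labels and the submitters' processing notes, the tools included CASAVA 1.8.2, TopHat2 2.0.8 and Partek, with the build mm10. How reads were counted, and whether by strand, is not given in the sources used here. The study's methods name RPKM, but the values deposited by the authors are a signal in which a read is worth the same in every gene: the lowest value of a library is shared by short and long genes alike, and the majority of low values are multiples of it. They were therefore treated as a normalized signal with a constant of 1 read per gene, scaled by the authors so that the third quartile was 15.59 to 15.62 in every library. Estimated reads are the value over the library's lowest value, minus 1. Of the values under 50 reads, 62.5% to 72.6% per library came out whole within 0.02, so no count model was the main test, and intervals on reads are not given. The listed genes had 10 or more estimated reads in their best library. Deposited gene ends were lowered by 1 to match GENCODE M21, which then gave the same positions for 6 of the 7 members.

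Values were tested as log2(value + 1) with limma 3.58.1 in R 4.3.3 (linear model, empirical Bayes with a variance trend), TAC minus MSC, two-sided, over the 15391 genes averaging 1 or more, with Benjamini-Hochberg adjustment over all of them at 0.05. With a pseudocount of 1 the fold change of a low gene is smaller than its ratio of values. The planned test assumed normalized values and was kept. The fit was tested on simulated data. Tables and figures used Python 3.11.15, pandas 2.3.3, numpy 2.4.6 and matplotlib 3.10.9. The deviations of same-numbered libraries from their group means correlated at 0.477, 0.465 and 0.517. MSC replicate 1 with TAC replicate 2 (0.462) and MSC replicate 2 with TAC replicate 1 (0.48) were as close. These values therefore cannot tell whether replicates 1 and 2 are paired by number. That the numbers pair the samples was an assumption made from the labels. The fit with the replicate number as a block was an alternative, with 17 others on pseudocount, filter, scaling, test and libraries.

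The members, the lists and the alternatives were chosen with earlier results of these data known, and the lists were written from general knowledge. A marker gene is not reported here. The genes named are the members, in each list those past the adjusted threshold and the 2 most extreme in each direction, and the 3 genes most alike to each member.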

Additional observations from a re-analysis of the deposited data

How the results depend on the processing

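Smoc2 kept its direction under all 18 alternatives (log2 difference from -5.91 to -4.93), and so did Smoc1, Sparcl1, Spock1, Spock2 and Fstl1. Of the 18, Smoc1 passed in 13, Spock1 in 9, Sparcl1 in 3 and Fstl1 in 2. Members other than Smoc2 that passed numbered 1 with a pseudocount of 0.5, 1 without the filter on low values, 1 with limma voom on estimated reads (in these 3 Smoc1), 4 with the kind of library (replicate 3 against the others) as a term (Smoc1, Sparcl1, Spock1 and Fstl1), 6 with replicates 1 and 2 only, and 0 with replicates 1 and 2 averaged (610 genes at an unadjusted p under 0.05 in limma). With 1 library left out they numbered 0 to 3: 0 without replicate 1 or 2 of either group, 1 without TAC replicate 3 (Smoc1) and 3 without MSC replicate 3. Replicates 1 and 2 of a group are far more alike than either is to replicate 3, so the fits that use only them have a small spread. With replicates 1 and 2 only, 6796 of the 15391 genes tested passed, and with the library kind term 1814 did.

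Over all genes, 43 passed with a pseudocount of 0.5, 114 with quantile normalization, 29 without the variance trend, 23 with voom, 229 with the replicate block, 1814 with the library kind term, 6796 with replicates 1 and 2 only and 10 with these averaged, against 65. With 1 library left out 0 to 292 passed: 0 without replicate 1 or 2 of either group (1028 to 1367 at an unadjusted p under 0.05 in limma), 36 without TAC replicate 3 and 292 without MSC replicate 3. The block changed no call of a member.

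Of the other matricellular genes 0 passed without the variance trend, 1 with voom, 9 with the library kind term, 13 with replicates 1 and 2 only, 0 with these averaged and 0 to 4 with 1 library left out (4 without MSC replicate 3). Of the follistatin-like or Kazal-type genes 2 passed with the replicate block, 4 with the library kind term, 9 with replicates 1 and 2 only, 0 with these averaged and 0 to 1 with 1 library left out. Of the ligands, receptors and targets 1 passed with the replicate block, 11 with the library kind term, 17 with replicates 1 and 2 only and 0 to 2 with 1 library left out (2 without MSC replicate 3). These counts stand beside 1814 of all 15391 genes tested with the library kind term and 6796 with replicates 1 and 2 only.

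The sign turned for Sparc with quantile normalization (-0.058), with replicates 1 and 2 only (-0.19) and without TAC replicate 3 (-0.18, of a leave-one-out range up to 0.29), and without MSC replicate 3 for Axin2 (-0.084, range up to 1.01) and Tnc (-0.40, range up to 3.03). Causes were not tested. The order of members per kilobase was the same with the longest transcript as the length, but the ratios between members were not. TAC replicate 3, the deepest library, held 2 estimated reads of Spock1. Fstl1 at the same difference of 0.54 passed with the library kind term (adjusted p = 0.0152) and not in the fit without it (0.563).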
